A study of Mus musculus with 6 samples.

Results

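Histone genes of the replication clusters were measured in mammary tumors with and without JAM-A. By name, 30 genes were taken as members, out of 19938 genes with a probe set of their own. A member was a gene whose probe set the platform annotation pairs with a single symbol that begins with H1f, H2ac, H2bc, H3c or H4c and a digit. The 27 members in a cluster were once called Hist1h or Hist2h genes. By type the 30 members were 8 linker histone H1 genes, 4 H2A genes, 9 H2B genes, 3 H3 genes and 6 H4 genes. The Hist1 cluster on chromosome 13 held 23 of them and the Hist2 cluster on chromosome 3 held 4 (H2bc18, H2bc21, H3c15 and H4c14). The other 3, H1f7, H1f8 and H1f10, carry a name of the same form but lie outside the clusters and have no such older name.

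Histones package DNA into nucleosomes. The core histones H2A, H2B, H3 and H4 form the nucleosome, and the linker histone H1 binds where DNA enters and leaves it. The clustered genes are transcribed in S phase, when new DNA must be packaged, and most of their mRNAs end in a stem-loop bound by SLBP in place of a poly(A) tail. A set of variant histone genes outside the clusters is expressed through the whole cell cycle and makes polyadenylated mRNA. Some members have a known place outside dividing somatic cells, since H1f6, H1f7, H2ac1 and H2bc1 are genes of male germ cells and H1f8 is the linker histone of the oocyte.

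Mammary tumors were taken at an early stage from MMTV-PyMT mice, in which the MMTV promoter, active in mammary epithelium, drives the polyoma virus middle T oncogene, and both groups carry this transgene. The JAM-A-/- group was 3 tumors (5333, 5346 and 5347) of MMTV-PyMT JAM-A KO mice, which lack the junctional adhesion molecule JAM-A, encoded by F11r, in the whole body, and the JAM-A+/+ group 3 tumors (5369, 5370 and 5393) of MMTV-PyMT mice. RNA of each tumor went onto its own array, the Affymetrix Mouse Gene 1.0 ST, and each value is an RMA expression level on the log2 scale. Differences are JAM-A-/- minus JAM-A+/+, and the labels give no age. They do not state that each tumor had its own mouse, and p-values here cover only how much these tumors vary.

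F11r bore out the genotypes. Its level was 5.91, 5.55 and 6.53 in tumors 5333, 5346 and 5347 against 10.1, 10.23 and 10.47 in tumors 5369, 5370 and 5393, a difference of -4.27 ± 0.24 (SE, n = 3 per group, limma adjusted p = 0.00667). The tissue label of tumor 5347 leaves out the loss of JAM-A, which its title and genotype give. Over all probe sets the interquartile ranges of the arrays were 3.41, 3.61 and 3.74 without JAM-A and 3.27, 3.5 and 3.53 with it. They were narrowest in tumor 5369 and widest in tumor 5347. Array medians lay between 6.23 and 6.34, but those of probe sets with 1 gene symbol differed more. These were 6.85, 6.91 and 6.97 without JAM-A and 6.75, 6.87 and 6.85 with it. The median gene was therefore 0.09 higher in JAM-A-/- tumors, and 71.0% of all genes had a difference above 0. After quantile normalization over the probe sets with 1 symbol, which removes this offset, the median was -0.00 and 49.6% of genes lay above 0. Histone values are set beside these numbers throughout.

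Promoter sequence was compared among the members. The RefSeq promoter table of GRCm38.p6 held a window of 250 bases before and 50 bases after the start for 26 of the 30 members, 23 of them in a cluster, and 5 short motifs were searched on both strands. CCAAT, the core of the NF-Y site, was in 20 of the 23 cluster windows and in 37.4% of all 32851 windows of the table. TATAAA, the letters of the TATA box, was in 15 of the 23 and in 13.6%. It lay 26 to 43 bases before the start on the strand of the gene in H1f1, H1f3, H1f5, H2ac1, H2ac4, H2bc8 and H4c4. In the others it lay elsewhere on that strand or on the opposite strand, for H2ac15 after the start and for H4c6 250 bases before it. The other motifs were spread unevenly over the types, and none of them was in either H3 window. GGTCCG, part of the element read by the H4 factor Hinfp, was in all 5 H4 windows and in 1 of the other cluster windows (H2bc9), against 8.25% of all windows. In H4c3, H4c6 and H4c9 it began 46 bases before the start, in H4c4 47 bases and in H4c8 5 bases. AAACACA, known as the H1 box, was in 4 of the 5 H1 windows of the cluster, 112 to 122 bases before the start in H1f2, H1f3, H1f5 and H1f6, and also in 2 H2A and 2 H2B windows, against 7.18% overall. ATTTGCAT, the octamer bound by Oct-1, was in 5 of the 7 H2B windows and on the opposite strand in 3 of the 4 H2A windows, against 1.74% overall. The H2ac8 and H2bc8 windows share 279 bases and the H2ac1 and H2bc1 windows 220 bases, because these H2A and H2B genes are transcribed away from each other, so their matches are partly the same letters.

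The 150 bases before the start are given below for 7 members, chosen after the values were seen. They show the motifs and are not the 7 members of largest difference. Capitals mark matches of the 5 motifs on either strand, the other bases are in lower case, and each stretch reads 5′ to 3′ on the strand of its gene. In GRCm38.p6 the stretch of H1f1 lies at chr13:23763518-23763667 (plus strand), that of H1f5 at chr13:21780626-21780775 (minus strand), that of H2ac4 at chr13:23750938-23751087 (plus strand) and that of H2ac15 at chr13:21753913-21754062 (minus strand). The stretch of H2bc18 lies at chr3:96269550-96269699 (plus strand), that of H3c4 at chr13:23575613-23575762 (plus strand) and that of H4c6 at chr13:23551669-23551818 (minus strand).
H1f1: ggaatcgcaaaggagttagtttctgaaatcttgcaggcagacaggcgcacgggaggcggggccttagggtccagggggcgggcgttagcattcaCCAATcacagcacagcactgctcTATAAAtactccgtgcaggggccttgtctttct
H1f5: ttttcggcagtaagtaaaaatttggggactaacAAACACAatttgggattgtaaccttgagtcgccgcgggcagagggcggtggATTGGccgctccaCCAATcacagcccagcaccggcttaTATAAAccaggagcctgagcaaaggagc
H2ac4: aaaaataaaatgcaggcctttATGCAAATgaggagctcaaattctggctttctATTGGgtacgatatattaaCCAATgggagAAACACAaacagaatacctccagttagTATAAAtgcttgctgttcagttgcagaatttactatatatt
H2ac15: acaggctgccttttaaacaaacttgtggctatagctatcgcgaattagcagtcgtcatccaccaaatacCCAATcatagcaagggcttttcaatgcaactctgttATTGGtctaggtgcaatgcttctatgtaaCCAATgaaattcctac
H2bc18: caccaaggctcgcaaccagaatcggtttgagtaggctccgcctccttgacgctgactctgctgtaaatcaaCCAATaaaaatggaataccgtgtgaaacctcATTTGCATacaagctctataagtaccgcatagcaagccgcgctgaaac
H3c4: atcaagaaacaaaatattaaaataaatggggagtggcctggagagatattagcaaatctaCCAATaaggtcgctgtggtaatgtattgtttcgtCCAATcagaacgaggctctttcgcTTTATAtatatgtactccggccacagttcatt
H4c6: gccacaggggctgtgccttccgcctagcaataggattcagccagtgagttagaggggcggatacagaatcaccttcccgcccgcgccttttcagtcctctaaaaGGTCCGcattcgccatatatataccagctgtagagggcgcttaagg
H1f5 shows the H1 box, a CCAAT on each strand and a TATA box in that order, while H1f1 has CCAAT and TATA matches without the H1 box. H2ac4 carries the octamer on the opposite strand and H2bc18 carries it on the strand of the gene. H2ac15 and H3c4 each show CCAAT matches, and H4c6 shows GGTCCG alone. A match describes these letters and not a bound site, and the array does not measure promoter use.

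Across the 30 genes, small positive differences were the rule. The difference was above 0 for 29 of 30 members, all but H2bc21, beside 71.0% of all genes, and the median difference was 0.21 beside 0.09 for all genes. In 9 of 30 members every JAM-A-/- tumor was above every JAM-A+/+ tumor, beside 12.4% of all genes. These were H1f5, H2ac4, H2ac15, H2bc3, H2bc4, H2bc14, H2bc18, H3c4 and H4c14, so each histone type held at least 1. A fold of at least 1.3 with an unadjusted limma p under 0.05 (the signature criteria) was met by 2 of 30, H2bc4 and H4c14, both higher in JAM-A-/- tumors, beside 4.73% of all genes. None of the 30 met the criteria on the lower side, beside 0.592% of genes. No member passed the limma test at an adjusted p under 0.05, which 0.00281% of all probe sets did, F11r alone, while 4 of 30 members had an unadjusted p under 0.05 (H2ac15, H4c14, H2bc4 and H2bc18), beside 8.16% of all genes.

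**Figure D1:**
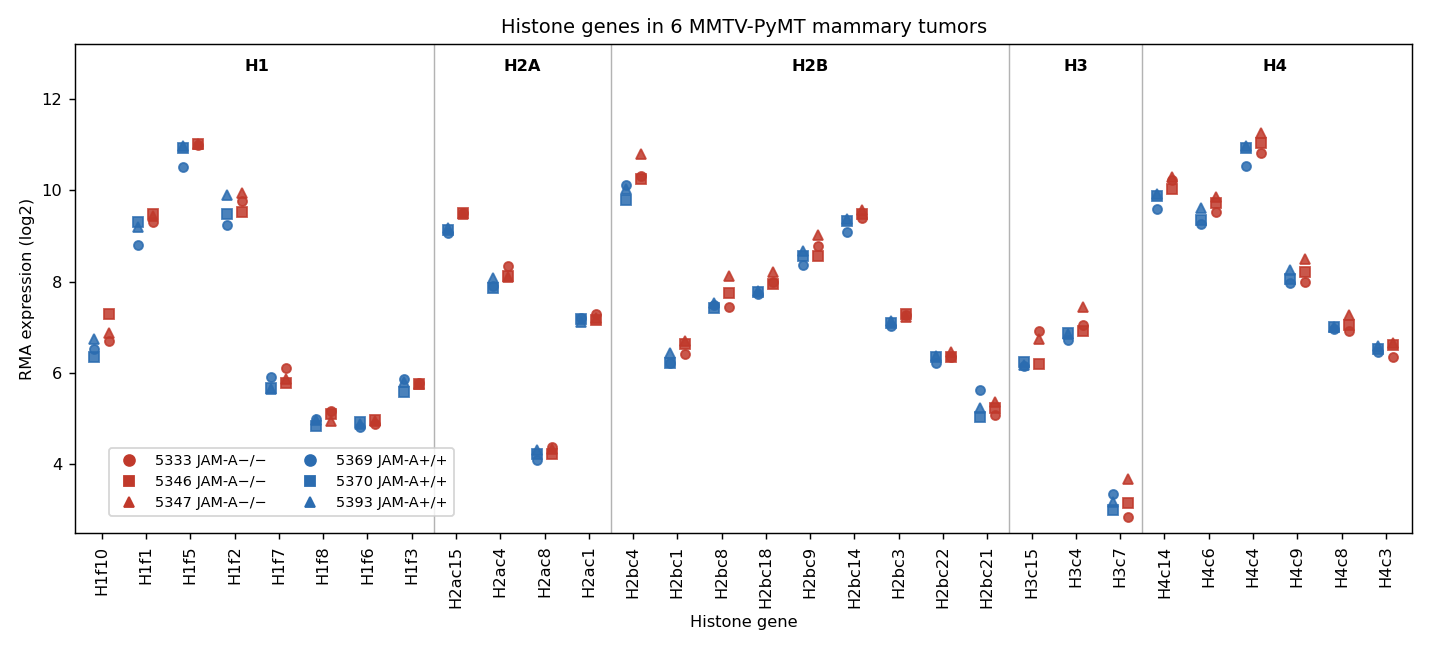
RMA expression (log2, vertical axis) of the 30 histone genes (horizontal axis, ordered within each type by difference) in the 6 tumors, 1 symbol per tumor, red for JAM-A-/- and blue for JAM-A+/+. The red symbols of H2ac15, H2bc4 and H4c14 all sit above the blue ones, while those of H1f3, H2bc21 and H3c7 overlap with them.

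These values depended on the scaling of the arrays. With quantile normalization over the probe sets with 1 symbol, 25 of 30 members stayed above 0, beside 49.6% of genes, and their median was 0.10 beside -0.00. On those values 0 members met the criteria, beside 1.78% of genes, and 0 had groups without overlap, beside 7.28% of genes. None of the 30 had an unadjusted limma p under 0.05 on them. After centring each array on the median of the probe sets with 1 symbol, 23 of 30 members lay above 0. The median of all genes was then 0.00, and the share of all genes above 0 was not counted. On the centred values 0 members met the criteria, beside 2.30% of genes. The direction was thus shared by most members under each scaling, and the 2 calls were not.

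Among the linker histones the difference was above 0 for 8 of 8, with a median of 0.19, or 0.07 after quantile normalization. H1f10, the H1X linker histone, which is not replication dependent, had the largest difference. Its level was 6.7, 7.29 and 6.88 in tumors 5333, 5346 and 5347 and 6.52, 6.34 and 6.75 in tumors 5369, 5370 and 5393. The groups overlapped, since tumor 5333 was below tumor 5393, and the difference of 0.42 ± 0.18 (SE) had a limma adjusted p of 0.461. H1f1 measured 9.3, 9.48 and 9.43 against 8.8, 9.3 and 9.2, with tumor 5369 well below the other 5, and differed by 0.30 ± 0.16 (limma adjusted p = 0.51), or by 0.15 without that tumor. H1f5, a main linker histone of dividing cells, was 11, 11.02 and 11.02 against 10.5, 10.93 and 10.97. The groups did not overlap by a narrow margin, and the difference of 0.21 was 0.06 without tumor 5369. It was 0.00 after quantile normalization. H1f2, whose mRNA is also made outside S phase, was 9.76, 9.53 and 9.93 against 9.23, 9.47 and 9.89, and these groups overlapped. H1f3 differed by 0.01, and the germ cell genes H1f6, H1f7 and H1f8 by 0.06, 0.17 and 0.14, all with overlapping groups.

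H2A and H2B pair into dimers in the nucleosome. All 4 H2A genes lay above 0, with a median of 0.18 (0.10 after quantile normalization). H2ac15 had the smallest p of all members, with levels of 9.5, 9.5 and 9.49 in the JAM-A-/- tumors against 9.07, 9.13 and 9.17 in the JAM-A+/+ tumors. The gap between the groups was wider than the spread within either, and the difference was 0.37 ± 0.10 (SE, limma adjusted p = 0.331). Its fold of 1.295 fell just under 1.3, so it did not meet the criteria, and H4c14 at 1.316 fell just inside. H2ac4 was 8.34, 8.13 and 8.1 against 7.91, 7.85 and 8.07, again without overlap, a difference of 0.25. H2ac8 and H2ac1 differed by 0.11 and 0.05, and their groups overlapped.

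In the H2B genes 8 of 9 lay above 0, with a median of 0.26 (0.12 after quantile normalization), and 4 of 9 had groups without overlap, beside 12.4% of all genes, or 0 of 9 after quantile normalization, beside 7.28%. H2bc4 had the largest difference of all 30 members. Its levels were 10.32, 10.24 and 10.8 in tumors 5333, 5346 and 5347 against 10.11, 9.78 and 10.03 in tumors 5369, 5370 and 5393, with tumor 5347 highest by far. The fold was 1.39 and the difference 0.48 ± 0.18 (SE, limma adjusted p = 0.419). It no longer met the criteria without tumor 5347 (0.31) or without tumor 5370 (0.38), nor under an equal-variance test. H2bc18 of the Hist2 cluster, 1 of the 5 H2B genes whose window held the octamer, was 8, 7.94 and 8.21 against 7.74, 7.78 and 7.79. Here the groups were apart as well, and the difference was 0.28 ± 0.12 (SE, limma adjusted p = 0.451). H2bc14 (9.39, 9.47 and 9.57 against 9.09, 9.32 and 9.38) and H2bc3 (7.28, 7.3 and 7.22 against 7.02, 7.1 and 7.13) were apart by narrow margins. H2bc1, H2bc8, H2bc9 and H2bc22 had differences of 0.29, 0.29, 0.26 and 0.07 with overlapping groups. H2bc21 alone was below 0, at -0.07 with a 95% interval of -0.47 to 0.34, and its highest tumor was 5369 at 5.63.

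H3 and H4 form the tetramer at the centre of the nucleosome. Of the 3 H3 genes with a probe set of their own, H3c15 was 6.92, 6.19 and 6.74 against 6.16, 6.24 and 6.17. Tumors 5333 and 5347 were high and tumor 5346 lay among the JAM-A+/+ values, and the difference of 0.43 ± 0.19 (SE) did not meet the criteria (limma adjusted p = 0.466). It was 0.28 without tumor 5333 and 0.64 without tumor 5346. H3c4 was 7.04, 6.91 and 7.45 against 6.72, 6.88 and 6.85, without overlap and with tumor 5347 highest, a difference of 0.32, or 0.16 without that tumor. H3c7 had the lowest signal of the members, 2.85 to 3.69 over the 6 tumors, and a difference of 0.05 with a 95% interval of -0.45 to 0.55.

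The H4 genes of the clusters are known to encode 1 and the same protein. All 6 lay above 0, with a median of 0.19, but the median was 0.01 after quantile normalization. H4c14 of the Hist2 cluster was 10.23, 10.03 and 10.29 against 9.58, 9.87 and 9.91. The groups did not overlap, and the difference was 0.40 ± 0.14 (SE, limma adjusted p = 0.405). It no longer met the criteria without tumor 5333 (0.37), 5347 (0.34) or 5369 (0.29). H4c6 was 9.53, 9.73 and 9.85 against 9.26, 9.34 and 9.61 (0.30), and H4c4 was 10.82, 11.03 and 11.25 against 10.52, 10.92 and 10.96 (0.23). Both overlapped between groups, with tumor 5347 highest and tumor 5369 lowest in each. H4c9, H4c8 and H4c3 differed by 0.14, 0.09 and 0.01.

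**Figure D2:**
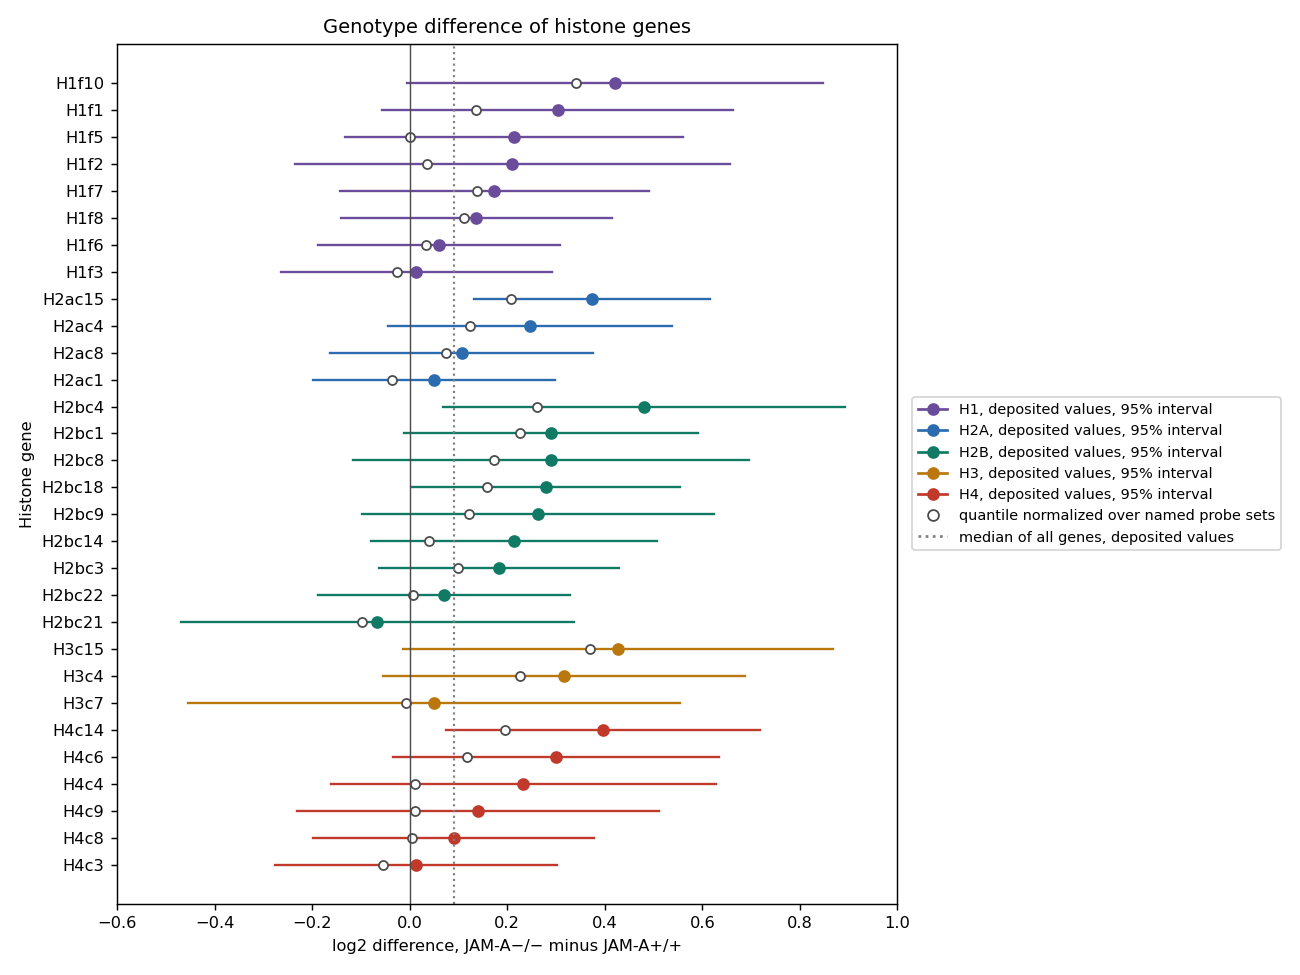
Log2 difference, JAM-A-/- minus JAM-A+/+ (horizontal axis), for each histone gene (vertical axis), with filled points and limma 95% intervals for the deposited values and open points after quantile normalization over the probe sets with 1 symbol. The dotted line is the median of all genes (0.09), the intervals of H2ac15, H2bc4, H2bc18 and H4c14 lie above 0, and most open points lie to the left of the filled ones.

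By cluster, the 23 Hist1 genes had a median of 0.21 and the 4 Hist2 genes a median of 0.34, and the 3 genes outside had 0.17. After quantile normalization these medians were 0.04, 0.18 and 0.14. No test was made between these groups or between the types. The difference also went with signal. The 23 members whose mean lay above the array median had a median difference of 0.26, beside 0.13 for all genes above it, and the 7 members below had 0.06, beside 0.05. Set against genes of like signal, in steps of 1 log2 unit, 22 members lay above the median of their step and 7 below it, by 0.10 in the median.

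**Figure D3:**
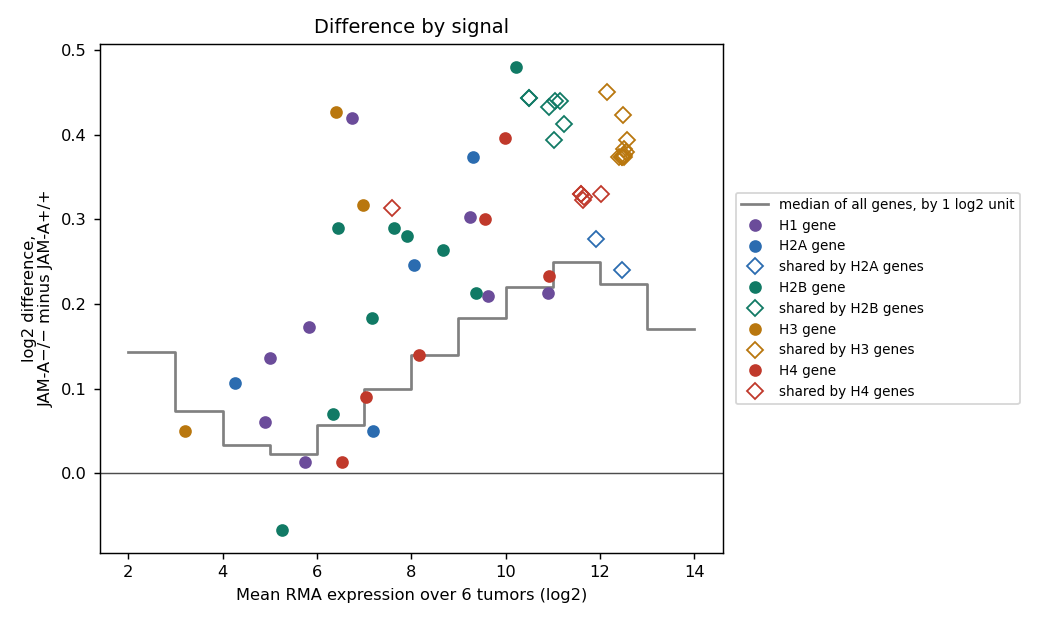
Log2 difference, JAM-A-/- minus JAM-A+/+ (vertical axis), against the mean RMA expression over the 6 tumors (log2, horizontal axis) for the 30 histone genes (filled circles) and the probe sets shared by several genes of 1 histone type (open diamonds). The grey steps are the median of all genes in each log2 unit, which was 0.02 between 5 and 6 and 0.25 between 11 and 12, and 22 of the 30 members lie above them.

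Many clustered histone genes of 1 type are nearly identical in sequence, and probes cannot always separate them. The annotation pairs 26 further probe sets with several histone genes each, and these were looked at after their values were seen. They share probes, and 2 of the 7 H2B sets and 2 of the 6 H4 sets held the same values in every tumor, so they are not separate measurements. The 7 sets of H2B genes had differences of 0.39 to 0.44, all without overlap (12.4% of all genes), and 7 of 7 met the criteria (4.73% of all genes). The 10 sets of H3 genes had differences of 0.37 to 0.45, all without overlap, and 5 of 10 met the criteria, to be read against the same shares. The 6 sets of H4 genes (0.31 to 0.33) and the 2 of H2A genes (0.24 and 0.28) did not meet them, nor did 1 set that mixes types (0.18). Signal was above 10 in every tumor for the H2A, H2B and H3 sets. Among genes above the array median, 15.4% had no overlap and 7.09% met the criteria as higher. The median of all genes was 0.22 between 10 and 11, 0.25 between 11 and 12 and 0.22 between 12 and 13. The H2A differences lay near these medians. The H3 set of largest difference (0.45) had 12.2, 12.38 and 12.51 in tumors 5333, 5346 and 5347. Tumors 5369, 5370 and 5393 had 11.68, 12.02 and 12.04. An H3 set at 0.37 was 12.5, 12.67 and 12.8 against 12.05, 12.43 and 12.37, a narrower gap. Both show the groups apart, with tumor 5369 low. The calls depended on single tumors and on scaling, since 0 of the 7 H2B and 0 of the 10 H3 sets met the criteria without tumor 5369, without tumor 5347, or after centring each array or quantile normalization over all listed probe sets. Centred medians were 0.35 for H2B and 0.29 for H3, and quantile-normalized ones 0.23 and 0.21.

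The values were also followed tumor by tumor. The median deviation of the 30 members from their own means was 0.06, 0.04 and 0.19 in tumors 5333, 5346 and 5347 and -0.17, -0.12 and -0.02 in tumors 5369, 5370 and 5393. For all genes it was -0.03, 0.04 and 0.13 and -0.09, -0.04 and -0.00. Tumor 5369 was the lowest of the 6 for 17 of 30 members, beside 37.5% of all genes, and tumor 5347 the highest for 17 of 30, beside 43.9%. The types differed in which tumor led. For H4 the deviation was 0.30 in tumor 5347 but -0.10 in tumor 5333, below the 0.05 of tumor 5393, while for H1 the 3 JAM-A-/- tumors lay together at 0.07, 0.09 and 0.08.

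**Figure D4:**
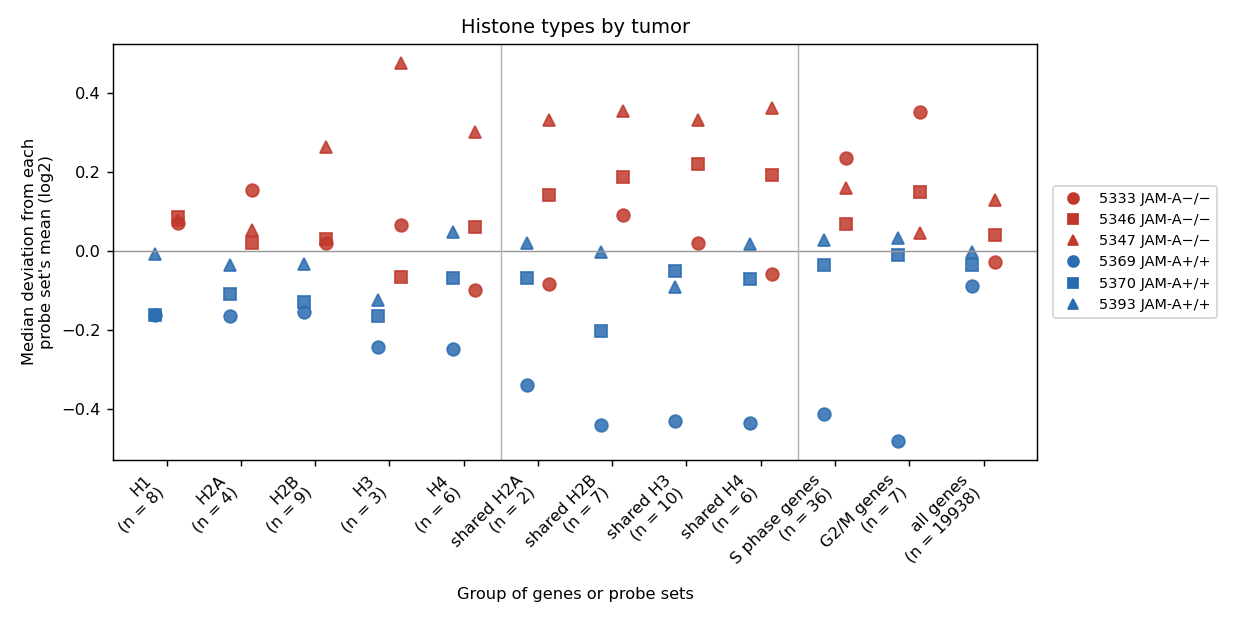
Median deviation from each probe set's own mean (log2, vertical axis) in the 6 tumors, 1 symbol per tumor, red for JAM-A-/- and blue for JAM-A+/+, for histone genes by type, shared histone probe sets, S phase genes, G2/M genes and all genes (horizontal axis, with their number). Tumor 5369 is the lowest in the shared histone sets (-0.34 to -0.44) and in the S phase (-0.41) and G2/M genes (-0.48), and tumor 5347 is the highest in the H2B, H3 and H4 genes.

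Genes of S phase, when the clustered histones are made, were read beside them. Of 36 measured genes, 34 lay above 0, 7 met the criteria as higher and 0 as lower, with a median of 0.29, beside 71.0% of all genes above 0, 4.73% meeting the criteria as higher and a median of 0.09. After quantile normalization the median was 0.16 and 2 of 36 met the criteria as higher, Mcm3 and Ccne1, beside 1.78% of genes. Mcm3, a subunit of the replicative helicase, was 9.17, 9.1 and 8.95 against 8.05, 8.6 and 8.77 (0.60, limma adjusted p = 0.38), without overlap. Gins3 and Cdc45, partners of that helicase, differed by 0.43 and 0.47, and Ccne1, the cyclin E1 that drives entry into S phase, by 0.49. Without tumor 5369 none of these 3 met the criteria (0.36, 0.32 and 0.32), and Ccne1 also did not without tumor 5333 or 5346 or with an equal-variance test, which ended the call of Mcm3 too. Gins3 and Cdc45 lost theirs after quantile normalization, and Gins3 after centring each array. The G2/M list held 7 measured genes, all above 0, of which the mitotic kinase Aurka (0.54) and Birc5 (0.44), the survivin gene, met the criteria, beside 4.73% of all genes. Both calls were lost without tumor 5369 (0.35 and 0.29), without tumor 5346 and with an equal-variance test, and that of Birc5 also without tumor 5333 and after either scaling. The S phase deviation was 0.24, 0.07 and 0.16 against -0.41, -0.04 and 0.03, so tumor 5369 was lowest here too, while tumor 5333 was highest and not tumor 5347. The authors reported, from Ki-67 protein staining of tumor sections, slightly fewer proliferating cells in JAM-A-/- tumors. Mki67, the gene of that protein, differed by 0.15 here, with overlapping groups. In bulk tissue a larger share of cells in S phase and more histone mRNA per cell cannot be told apart, and neither was tested.

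The genes that make and process histone mRNA had values near those of all genes. Of 27 measured genes of histone gene transcription and mRNA processing, 0 met the criteria, beside 4.73% of all genes as higher and 0.592% as lower. Of the 27, 21 lay above 0 and 6 below, beside 71.0% of all genes above 0. The median was 0.10, close to the 0.09 of all genes (-0.05 after quantile normalization). Most of these genes had levels from 7 to 10, where the medians of all genes by log2 unit were 0.10, 0.14 and 0.18. Npat, the cyclin E target that organizes the histone locus body, was 7.67, 7.72 and 7.72 against 7.77, 7.88 and 7.63 (-0.06). Its partner Casp8ap2 differed by -0.05, Hinfp by 0.11 and Slbp, the stem-loop binding protein, by 0.07, each with overlapping groups. The smallest p values in the list were those of Cstf2, a cleavage factor (0.30), and Upf1, which takes part in histone mRNA decay (0.29). Of 21 measured chaperone and nucleosome assembly genes, 0 met the criteria, beside the same shares, and 15 lay above 0. In 4 of the 21 every JAM-A-/- tumor was above every JAM-A+/+ tumor, beside 12.4% of all genes. The median was 0.15 (-0.05 after quantile normalization). The S phase chaperone of H3 and H4, Asf1b, was 8.95, 9.09 and 8.98 against 8.4, 8.8 and 8.75. Its difference of 0.36 (limma adjusted p = 0.434) was under the fold of 1.3. It was the only 1 of the 21 with an unadjusted limma p under 0.05, beside 8.16% of all genes. The H3.3 chaperone Daxx differed by 0.34.

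The replacement variants listed here are histone genes outside the replication clusters, most of them with polyadenylated mRNA. All 9 measured genes of this list, H1f10 included, lay above 0, with a median of 0.24 (0.10 after quantile normalization), and 2 met the criteria, beside 4.73% of all genes. H2az2, an H2A.Z gene, was 9.68, 9.71 and 9.88 against 9.18, 9.27 and 9.45. The groups were apart, by 0.46 ± 0.13 (SE, limma adjusted p = 0.326), and the criteria were not met after quantile normalization (0.28) or centring (0.37). Macroh2a2, a macroH2A variant linked to silent chromatin, was 5.9, 6.01 and 6.31 against 5.6, 5.43 and 5.68 (0.50 ± 0.15, limma adjusted p = 0.341), and it met the criteria after quantile normalization too. H2ax, the variant phosphorylated at DNA breaks, differed by 0.37 with overlapping groups. Of the genes once called Hist3h and Hist4h whose present names fall outside the naming rule, H2aw (Hist3h2a) was 9, 9.19 and 9.4 against 8.68, 8.71 and 8.75 (0.48, limma adjusted p = 0.326) and met the criteria, H2bu2 and H2bu1-ps were at -0.04 and -0.03, and H4f16 was at 0.10.

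Other cells in the tumors were read from marker lists, as the log2 of the summed levels. The mammary epithelial sum was 14.02 to 14.52 in JAM-A-/- tumors and 13.96 to 14.33 in JAM-A+/+ tumors. Of its markers, 0 of 7 met the criteria, beside 4.73% of all genes as higher. The fibroblast sum was 13.49 to 13.92 against 12.80 to 13.66, and tumor 5369 was the lowest. Of the fibroblast markers, 2 of 5 met the criteria as higher, beside 4.73% of all genes. The next counts are read against the same share. The endothelial sum was 9.43 to 9.88 against 8.96 to 9.58, with 1 of 5 meeting them, again with tumor 5369 lowest. Skeletal muscle gave 10.37 to 11.40 against 9.28 to 10.78, with 1 of 5, macrophages 11.39 to 12.06 against 11.33 to 12.00, with 0 of 5, and lymphocytes 8.73 to 8.99 against 8.83 to 9.04, with 0 of 7. For red blood cells only 2 of 5 markers had a probe set of their own, and 0 met the criteria. After quantile normalization, 1 fibroblast, 1 endothelial and 0 skeletal muscle markers met the criteria as higher, beside 1.78% of genes. On those values 1 epithelial marker, Elf5 (-0.46), met them as lower, beside 313 of 19938 genes, and 2 of the 7 epithelial markers lay above 0. No marker level was at 0, and the part of these cells in the histone values was not tested.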

How the data were processed

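RNA of 6 early mammary tumors was hybridized to 1 Mouse Gene 1.0 ST array each, after labelling of whole transcripts, which does not need a poly(A) tail. The authors summarised the probes with RMA and deposited log2 levels, and the submitters' processing notes name Affymetrix Expression Console 1.1. They are rounded to 2 decimals, and RMA forces the probes of all arrays to 1 distribution, so the total RNA per tumor is lost. Filters, scan batches and the genome build were not given in the sources used here.

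From these values, differences and p-values were computed over all 35557 probe sets in R 4.3.3 with limma 3.58.1 (3 tumors a group, no covariate, default empirical Bayes, Benjamini-Hochberg adjustment over all probe sets). The steps were tested on simulated data. The platform annotation gives 1 symbol for 21789 probe sets, several for 1621 and none for 12147. For each gene the probe set with the highest mean was used, and each of the 30 members had only 1. All 30 were matched by gene identifier in the RefSeq gene table. An exact permutation test of 1 gene cannot go below p = 0.1 here. The 3 arrays per group limit the precision, and an array gives no read depth.

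The members and lists were chosen with earlier results of these data known. Named genes were F11r, members meeting the criteria, in each type the 2 of smallest p, the 2 of highest level and those of highest and lowest difference, Npat, Slbp, Hinfp, Casp8ap2 and Macroh2a2, and in each other list up to 4 genes meeting the criteria or else 2 of smallest p. Other genes were named after their values were seen. Promoter motifs were counted in Python 3.11.15. Alternatives were an intensity trend with robust prior, an equal-variance test, 2 scalings over named probe sets, leaving out the 40% dimmest probe sets, a fold of 1.5 and leaving out each tumor. Taking the mean of all probe sets of a gene changes nothing with 1 each. Histone protein sequences were not used here.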

Additional observations from a re-analysis of the deposited data

How the results depend on the processing

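The number of members meeting the criteria as higher was 2 of 30 on the deposited values, beside 4.73% of all genes. The share of all genes is given in brackets for each setting but the fold of 1.5. At that fold it was not counted, so the number of members there has nothing to be read against. The number was 1 with the equal-variance test (2.46%), 3 with an intensity trend and robust prior (4.70%) and 0 at a fold of 1.5. It was 0 after quantile normalization over probe sets with 1 symbol (1.78%) and 0 after centring each array on the median of those (2.30%). Without the 40% dimmest probe sets it was 4 of 25 (7.04%). When each tumor was left out it was 0 to 5. It was 4 without 5333 (10.1%), 4 without 5346 (4.05%) and 0 without 5347 (3.17%). It was 1 without 5369 (2.52%), 1 without 5370 (4.76%) and 5 without 5393 (6.52%). The number lower was 0 under every one of these settings. The median over all members, 0.21, was 0.10 after quantile normalization and 0.13 after centring, and 0.15 to 0.29 when each tumor was left out. For H1 (0.19) it was 0.073 after quantile normalization and 0.11 after centring (leaving out each tumor, 0.11 to 0.23), and for H2A (0.18) 0.10 and 0.09, with 0.25 without the dimmest probe sets (0.12 to 0.23). For H2B (0.26) it was 0.12 after quantile normalization (0.17 to 0.29 when each tumor was left out). The H4 median, 0.19, fell to 0.01 after quantile normalization and was 0.07 to 0.30 when each tumor was left out (0.07 without 5347, 0.085 without 5369 and 0.30 without 5333), and the H3 median, 0.32, was 0.16 (without 5347) to 0.43. F11r stayed between -4.05 and -4.54. Of the shared probe sets, 6 of 7 H2B and 1 of 10 H3 sets met the criteria with the equal-variance test, beside 2.46% of all genes. This setting was chosen like the others for these sets after seeing the data. Without tumor 5333, 6 of 6 H4 sets met them, beside 10.1% of all genes. No value changed sign among those called. No paired analysis was possible because the tumor numbers are not shared between the groups. A histone mRNA read by probes that match several genes cannot be assigned to 1 of them, and H3c7, the member of lowest signal, had a 95% interval of -0.45 to 0.55.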
